A study of Mus musculus with 4 samples.

Results

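Genes of cholesterol and fatty acid synthesis were followed in primary mouse keratinocytes, the epithelial cells of the epidermis. The rule named 32 genes, taken by their symbol in the platform annotation with the probe set of highest mean standing for each gene. Of these, 31 were on the array among 12393 genes in all, and Insig1 was not analysed here. Counts and medians cover genes whose mean log2 intensity was at or above the table's median (20.04 intensity units), which kept 7075 genes and 30 of the 31 members. Acaca, acetyl-CoA carboxylase, which makes the malonyl-CoA used in chain building, was the member left out, at 7.49, 6.38, 6.59 and 7.50 in CKO 4OHT, CKO EtOH, control 4OHT and control EtOH cells.

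The keratinocytes were grown from tail skin of C57BL/6 mice, and every culture carried a floxed Prdm1 gene. Prdm1 encodes the transcriptional repressor Blimp-1, and "floxed" means that Cre recombinase can excise part of the gene. CKO cells also expressed CreER, a Cre that becomes active when 4-hydroxytamoxifen (4OHT) binds it. Control cells had no CreER. The 4 groups were CKO cells with 4OHT, CKO cells with its solvent ethanol (EtOH), control cells with 4OHT and control cells with EtOH, treated between day 1 and day 3 and harvested on day 5. Each group had 1 array, so there was no error estimate, no test was possible, and differences are described by size alone. The promoter that drives CreER, the age of the mice and the number of mice behind a culture were not given in the sources used here. CKO and control cells came from different mice, so genotype and animal cannot be told apart.

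Cholesterol is built from acetyl-CoA through mevalonate, farnesyl diphosphate, squalene and lanosterol, and its last steps are carried out by membrane enzymes of the endoplasmic reticulum. The transcription factors SREBP-1 and SREBP-2, encoded by Srebf1 and Srebf2, are held back in that membrane by Insig proteins when sterols are plentiful and drive most of these genes, and those of fatty acid synthesis, when they are scarce. In the epidermis, cholesterol, free fatty acids and ceramides form the lipid layers of the permeability barrier, and the cholesterol precursor 7-dehydrocholesterol is also the source of vitamin D.

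Median intensities of the arrays lay at 19.95 to 20.22. Prdm1 was at 6.43 in CKO 4OHT, 17.0 in CKO EtOH, 52.4 in control 4OHT and 20.7 in control EtOH cells, so the CKO 4OHT array had the lowest value. Its mean level was under the filter, and which part of the gene is excised was not given in the sources used here. Of 10 listed keratinocyte markers, 9 were on the array, all of them were kept, and their summed intensity, most of it from Krt14 and Krt5, ranged from 14708 to 15231 over the 4 arrays. Single markers differed more: Epcam was 2.02-fold and Itgb4 1.74-fold higher in CKO 4OHT than in CKO EtOH cells, and Cdh1 was 1.47-fold lower in CKO 4OHT than in control 4OHT cells. Their part in the values of the synthesis genes was not tested. Of the markers of other cells, 3 of 9 sebocyte, 2 of 8 adipocyte, 1 of 9 fibroblast, 3 of 7 melanocyte, 1 of 9 immune and 0 of 6 endothelial genes on the array were kept. The sebocyte genes Scd3, Elovl3, Mc5r and Pparg, and the adipocyte genes Adipoq and Fabp4, were under the filter. The table holds no zeros and no detection calls, so dim values are not shown to be absent. In such bulk cultures, fewer cells of a type and less RNA per cell cannot be told apart.

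Promoters of the members are shown for the genes the results turn on. The sequences are those of RefSeq on the mouse build GRCm38.p6, from 250 bases before to 50 bases after a start site, 5′ to 3′ on the gene's strand. Capitals mark the box CCAAT (or ATTGG on the other strand), which the factor NF-Y binds, and the sterol regulatory element TCACNCCAC, which SREBP proteins bind. Dhcr7 and Hsd17b7 are shown because each had a probe set more than 2-fold higher in CKO 4OHT than in CKO EtOH cells. Hmgcs1 is shown because it was the single member whose window matched the letters TCACNCCAC. The windows are Dhcr7 at chr7:143829964-143830263 (+ strand), Hsd17b7 at chr1:169969156-169969455 (- strand) and Hmgcs1 at chr13:119690101-119690400 (+ strand).
Dhcr7: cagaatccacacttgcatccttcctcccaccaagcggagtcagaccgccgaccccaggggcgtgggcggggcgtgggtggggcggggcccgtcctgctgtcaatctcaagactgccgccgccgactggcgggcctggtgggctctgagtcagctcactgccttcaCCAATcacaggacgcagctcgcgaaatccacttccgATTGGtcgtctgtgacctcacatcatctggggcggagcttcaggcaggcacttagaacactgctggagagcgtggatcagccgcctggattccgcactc
Hsd17b7: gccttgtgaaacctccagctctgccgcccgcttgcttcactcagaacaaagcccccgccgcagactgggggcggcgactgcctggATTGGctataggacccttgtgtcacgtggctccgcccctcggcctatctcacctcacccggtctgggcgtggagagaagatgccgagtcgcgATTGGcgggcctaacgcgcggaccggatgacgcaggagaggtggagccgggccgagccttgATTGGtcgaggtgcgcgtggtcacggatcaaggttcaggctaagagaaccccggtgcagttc
Hmgcs1: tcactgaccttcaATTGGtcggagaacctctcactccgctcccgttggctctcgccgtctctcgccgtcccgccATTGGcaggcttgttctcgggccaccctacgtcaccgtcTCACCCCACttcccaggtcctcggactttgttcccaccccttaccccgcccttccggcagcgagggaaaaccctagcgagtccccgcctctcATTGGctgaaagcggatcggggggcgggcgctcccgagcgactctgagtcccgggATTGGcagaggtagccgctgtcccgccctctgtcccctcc

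The Dhcr7 window held 2 NF-Y boxes and the Hsd17b7 window 3, and neither held TCACNCCAC. The Hmgcs1 window held 4 NF-Y boxes and 1 match to TCACNCCAC, whose bases lay from -137 to -129 relative to the start site. Dhcr7 has 2 further annotated start sites, and their windows held no NF-Y box. RefSeq windows were found for 25 of the 32 genes named, 33 windows in all. An NF-Y box on either strand was present for 21 of 25 genes (84%), against 42.7% of 5796 genes kept on the array and 41.1% of 27025 genes with a window. The Sp1 box GGGCGG was present for 20 genes (80%), against 72.5% of kept genes and 38.2% of all genes. The E-box CACGTG was present for 6 genes (24%), against 12.8% and 8.09%, and TCACNCCAC for 1 gene (4%), against 1.38% and 1.44%. Boxes of 1 kind can overlap on opposite strands, as in Fasn. A match describes the letters of a window and is not a bound site, and genes with several start sites had more than 1 window to hold a match. Only these exact letters were searched, so a site spelled otherwise would not be counted.

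**Figure D1:**
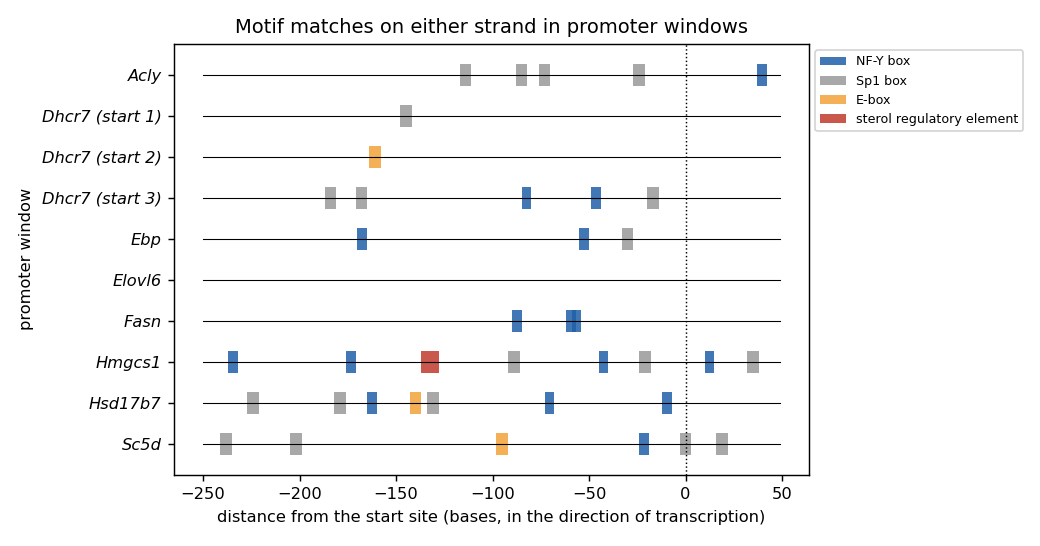
Motif matches in the promoter windows of members described in the text. The x axis is the distance in bases from the start site (0, dotted), each row is 1 window, and coloured blocks are matches on either strand to the sterol regulatory element, the E-box, the NF-Y box and the Sp1 box. The letters TCACNCCAC of the sterol regulatory element were matched in the Hmgcs1 row alone, and the Elovl6 row holds no match.

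As a group, the synthesis genes differed little between the arrays. The log2 range of a member over the 4 arrays had a median of 0.41 (quartiles 0.26 and 0.59), against 0.37 (0.24 and 0.55) for all genes kept. The range reached 1 for 1 of the 30 members (3.33%), Dhcr7, against 5.63% of all genes kept. The median log2 difference of the 30 members was 0.03 in CKO 4OHT against CKO EtOH cells and 0.02 in CKO 4OHT against control 4OHT cells, beside 0.01 and 0.02 for all genes kept. It was -0.04 in control 4OHT against control EtOH cells and -0.11 in CKO EtOH against control EtOH cells, beside -0.05 and -0.03. The largest of these 4 medians was thus 0.11 below 0.

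The members were spread over the arrays at their extremes. CKO 4OHT was the lowest array for 9 of the 30 members and the highest for 10, where 31.1% of all genes kept were lowest and 32% highest there. CKO EtOH was lowest for 7 members and highest for 1, Nsdhl (17.3% and 15.2% of all genes kept). Control 4OHT was lowest for 7 and highest for 7 (31.3% and 23.2%), and control EtOH lowest for 7 and highest for 12 (20.3% and 29.6%). Of the 9 members lowest in CKO 4OHT, 4 were mevalonate enzymes and 2 acted between lanosterol and cholesterol. Of the 10 highest there, 1 was a mevalonate enzyme (Idi1) and 5 acted between lanosterol and cholesterol. Other probe sets of Idi1 and Cyp51 above the filter did not have CKO 4OHT highest, which leaves 0 and 4 when each of these genes is read by its other one. Among the 9 lowest in CKO 4OHT, the other probe sets of Mvk and Stard4 above the filter were lowest in control EtOH instead.

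**Figure D2:**
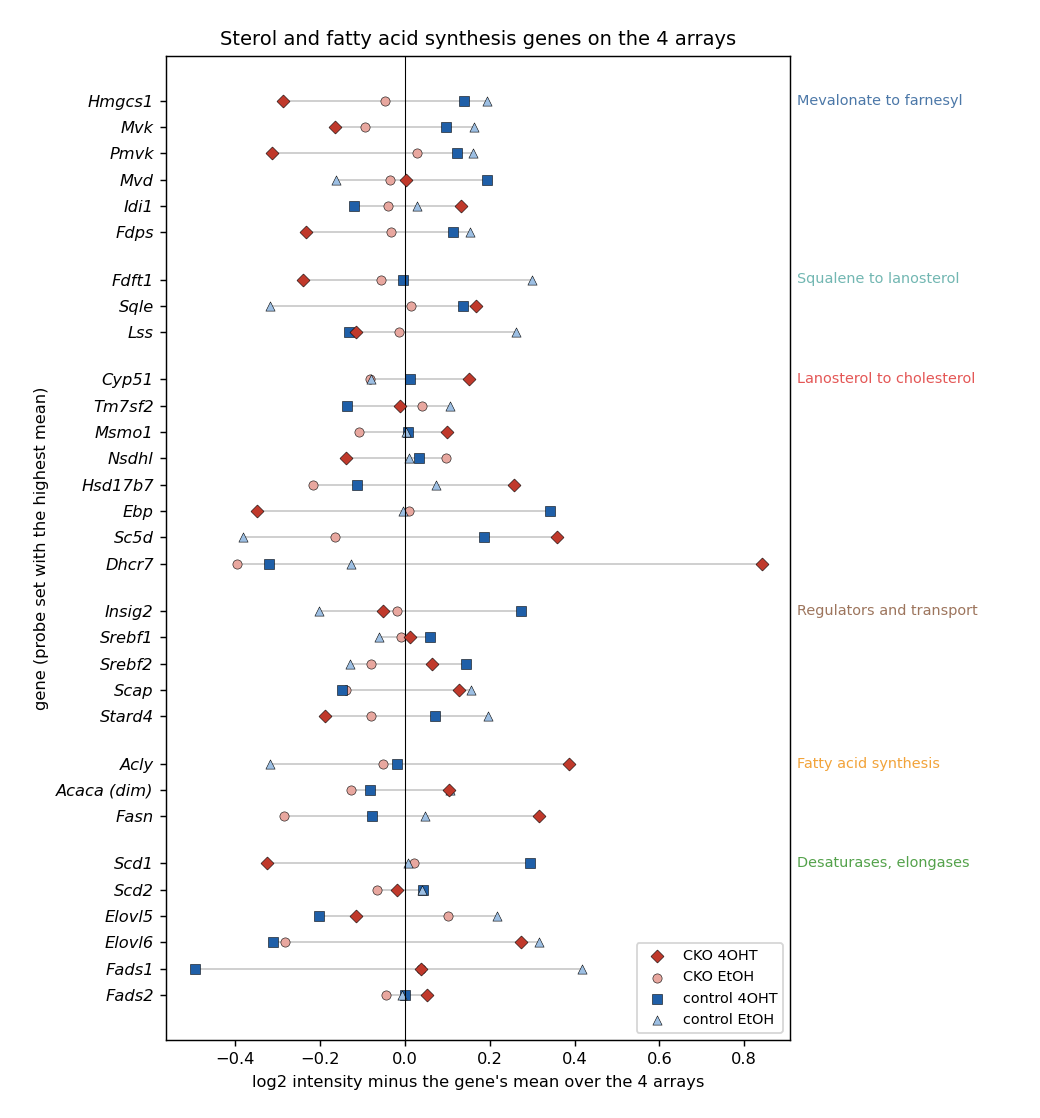
Each row is 1 of the 31 members on the array, ordered by role, and the x axis is its log2 intensity minus its own mean over the 4 arrays. Diamonds are CKO 4OHT, circles CKO EtOH, squares control 4OHT and triangles control EtOH, with 1 array each. Dhcr7 spans 1.24 log2 with CKO 4OHT far to the right, whereas Hmgcs1, Mvk, Pmvk and Fdps have CKO 4OHT at the left end.

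By their probe sets of highest mean, 4 of the 6 mevalonate enzymes at the start of the pathway were lowest in CKO 4OHT cells. Hmgcs1, HMG-CoA synthase, which condenses acetyl-CoA units at the entry to the pathway, was at 1018 in CKO 4OHT, 1203 in CKO EtOH, 1368 in control 4OHT and 1421 in control EtOH cells. Fdps, which makes farnesyl diphosphate, was at 902, 1037, 1146 and 1180 in the same order of groups. Pmvk, phosphomevalonate kinase, was at 84.3, 107, 114 and 117. Both CKO arrays were below both control arrays for these genes, and CKO 4OHT was the lowest. Mvk, mevalonate kinase, had the same order by its probe set of highest mean, with a range of 0.33 log2. Mvd, which decarboxylates mevalonate diphosphate, and Idi1, the isomerase of the isoprene unit, did not: Mvd was highest in control 4OHT (109) and Idi1 in CKO 4OHT (369). The other Mvd probe set above the filter was highest in control EtOH instead, at 77.9, 75.7, 81.2 and 99.1 in the same order of groups. The other Mvk probe set above the filter was lowest in control EtOH, at 92.1, 97.9, 93.9 and 83.0. The median log2 difference over the 6 genes was -0.14 against CKO EtOH and -0.30 against control 4OHT, and none reached 2-fold in either, where 1.64% of all genes kept were at least 2-fold higher and 1.74% lower against CKO EtOH, and 1.24% and 2.09% against control 4OHT.

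The order CKO 4OHT, CKO EtOH, control 4OHT, control EtOH, from low to high, held for 6 of the 30 members (20%), Hmgcs1, Mvk, Pmvk, Fdps, Fdft1 and Stard4, and for 5.07% of all genes kept. This order was noticed in the data and is a description. Among 6 further probe sets of these genes above the level filter, 1 had the whole order and 4 had CKO 4OHT lowest. Those 4 were probe sets of Hmgcs1 and Fdft1, whereas those of Mvk and Stard4 had control EtOH lowest. Steps of the order were small: Hmgcs1 was 1.18-fold and Fdps 1.15-fold lower in CKO 4OHT than on the next array.

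The middle steps lead through squalene to lanosterol. Fdft1, squalene synthase, was at 576 in CKO 4OHT, 655 in CKO EtOH, 678 in control 4OHT and 838 in control EtOH cells. Sqle, squalene epoxidase, a rate-limiting oxygen-dependent step, was at 439, 395, 430 and 314. Lss, lanosterol synthase, was at 304, 327, 301 and 395. These 3 genes did not share a pattern: control EtOH was the highest array for Fdft1 and Lss and the lowest for Sqle. The largest difference among the 4 comparisons was for Sqle in control 4OHT against control EtOH cells (0.45 log2).

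Dhcr7 was the member furthest from the others. It encodes 7-dehydrocholesterol reductase, which makes cholesterol in the last step of one branch of the pathway. Its only probe set was at 225 in CKO 4OHT cells, against 95.3 in CKO EtOH, 100 in control 4OHT and 115 in control EtOH cells. The other 3 arrays lay close together and CKO 4OHT was above them all. The log2 difference was 1.24 against CKO EtOH (2.36-fold) and 1.16 against control 4OHT (2.24-fold). It was 1.96-fold above control EtOH, the nearest array, just short of the 2-fold that 44 genes (0.622% of all genes kept) reached above every other array. No member reached it. Dhcr7 was the 1 member of 30 at least 2-fold higher in either comparison of CKO 4OHT cells, and no member was 2-fold lower. These counts are near the shares over all genes kept, 1.64% higher and 1.74% lower against CKO EtOH and 1.24% and 2.09% against control 4OHT. Against CKO EtOH, 72 of the 7075 genes, Dhcr7 included, had a difference at least as high, and 62 had one against control 4OHT. In control cells 4OHT went with a log2 difference of -0.19.

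Hsd17b7, the keto-sterol reductase that acts while methyl groups are removed from lanosterol derivatives, was read by a pair of probe sets that differed in size. The one of highest mean was at 65.6 in CKO 4OHT, 47.2 in CKO EtOH, 50.7 in control 4OHT and 57.8 in control EtOH cells, a log2 difference of 0.47 against CKO EtOH and 0.37 against control 4OHT. The other was at 93.4, 40.9, 46.1 and 47.0, a difference of 1.19 and 1.02. Both read CKO 4OHT as the highest array, 1.14-fold and 1.99-fold above the next. Which of them follows the transcript more closely was not tested.

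Other late enzymes went different ways. Sc5d, the desaturase that makes 7-dehydrocholesterol, the substrate of Dhcr7, was at 404 in CKO 4OHT against 281 in CKO EtOH cells, and at 359 in control 4OHT against 242 in control EtOH cells. It was thus higher with 4OHT in both genotypes, by 0.52 and 0.57 log2. Ebp, the sterol isomerase that acts before Sc5d, was at 190 in CKO 4OHT against 244 in CKO EtOH cells, and at 307 in control 4OHT against 242 in control EtOH cells. It was lowest in CKO 4OHT and highest in control 4OHT, with a log2 difference of -0.69 between those cultures.

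Msmo1, the sterol methyl oxidase, was at 828, 717, 776 and 774 in CKO 4OHT, CKO EtOH, control 4OHT and control EtOH cells. Nsdhl, which removes the carboxyl group left by Msmo1, was at 410, 483, 462 and 454 in the same groups. Neither spanned more than 0.23 log2. Cyp51, lanosterol demethylase, and Tm7sf2, a sterol reductase, spanned 0.23 and 0.24. Cyp51 was read in opposite directions by its 2 probe sets above the filter, at 0.23 and -0.35 against CKO EtOH, so its small difference has no clear sign. The second was at 60.5 in CKO 4OHT, 77.2 in CKO EtOH, 70.9 in control 4OHT and 107 in control EtOH cells. Over the 8 genes from lanosterol to cholesterol the median difference was 0.22 against CKO EtOH and 0.13 against control 4OHT, and 5 of 8 were highest in CKO 4OHT cells, where 32% of all genes kept were highest. With Cyp51 read by its other probe set, a reading chosen after seeing the data, the medians were 0.08 and 0.11 and the count 4 of 8.

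**Figure D3:**
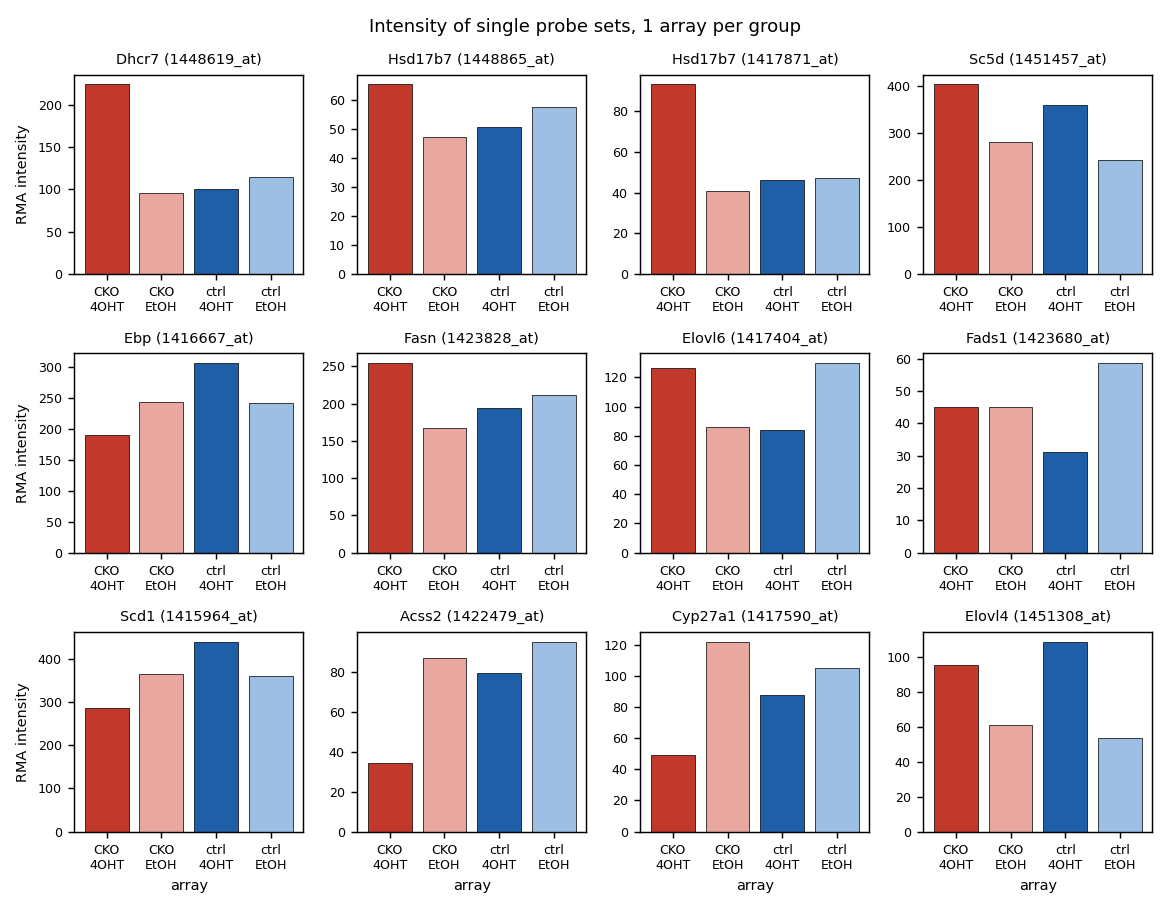
RMA intensity of single probe sets on the 4 arrays (bars from 0, 1 array per group, so no error bars). In the Dhcr7 panel CKO 4OHT stands at 225 against 95.3 to 115 on the other arrays, and in the Acss2 panel at 34.1 against 79.3 to 95.2. The Hsd17b7 panels show its probe sets, which differ in size.

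Among the regulators of the pathway, each read by its probe set of highest mean, Srebf1 had the narrowest range and Insig2 the widest. Srebf1 was at 224 in CKO 4OHT, 221 in CKO EtOH, 231 in control 4OHT and 213 in control EtOH cells, a span of 0.12 log2. Scap, the escort that carries SREBP proteins to the Golgi apparatus, was at 407, 338, 336 and 415. Insig2, which retains Scap in the endoplasmic reticulum, was at 126, 129, 158 and 113, a span of 0.48 against a median of 0.37 for all genes kept. Scap was high on the CKO 4OHT and control EtOH arrays alike, and Insig2 was highest in control 4OHT by its probe set of highest mean. The other Insig2 probe set above the filter was highest in control EtOH, at 79.8, 96.1, 98.3 and 112. Srebf2 spanned 0.27 log2, but its other probe set was at 77.8, 87.0, 84.2 and 62.4. The Srebf2 probe sets differed in sign against CKO EtOH, at 0.14 and -0.16. Stard4, a cholesterol carrier of the cytosol, was at 101, 109, 121 and 132, lowest in CKO 4OHT. Its other probe set above the filter was lowest in control EtOH instead, at 66.0, 66.0, 68.6 and 59.8. None of the 5 regulators reached 1.5-fold in any of the 4 comparisons, a count near the shares over all genes kept (5.37% higher and 5.34% lower against CKO EtOH, for example). Transcript levels do not report the cleavage of SREBP proteins, which was not measured.

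Among the enzymes that build fatty acids, both members above the filter were highest in CKO 4OHT cells. Fasn, fatty acid synthase, was at 255 in CKO 4OHT, 168 in CKO EtOH, 194 in control 4OHT and 211 in control EtOH cells. Its log2 difference was 0.60 against CKO EtOH, past 1.5-fold, and 0.39 against control 4OHT. With Dhcr7 it was 1 of 2 members at least 1.5-fold higher against CKO EtOH (5.37% of all genes kept), and no member was 1.5-fold lower there (5.34%). Acly, ATP citrate lyase, which supplies acetyl-CoA to both pathways, was at 380, 280, 286 and 233, 0.44 and 0.41 log2 higher in CKO 4OHT. Its other probe sets above the filter had the same sign in both comparisons, at 0.71 and 0.27 against CKO EtOH and 0.47 and 0.28 against control 4OHT.

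The elongase Elovl6 and the desaturase Fads1 were lowest in control 4OHT cells, though Elovl6 was nearly as low in CKO EtOH cells by its probe set of highest mean. Elovl6, which lengthens palmitate, was at 126 in CKO 4OHT against 85.8 in CKO EtOH cells, and at 84.2 in control 4OHT against 130 in control EtOH cells. The log2 difference with 4OHT was 0.56 in CKO cells and -0.63 in control cells. Fads1, which desaturates polyunsaturated fatty acids, was at 45.1 in both CKO 4OHT and CKO EtOH cells, and at 31.2 in control 4OHT against 58.7 in control EtOH cells (-0.91 log2). Both genes were thus lower in control 4OHT than in control EtOH cells by over 1.5-fold, as for 3.84% of all genes kept, and no other member was; none was 1.5-fold higher (3.83%). A second Elovl6 probe set had the same signs, at 0.27 and -0.91. No member was 2-fold different between the control cultures, where 1.29% of all genes kept were higher and 0.212% lower.

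Scd1, stearoyl-CoA desaturase, which makes oleate, was at 287 in CKO 4OHT, 365 in CKO EtOH, 441 in control 4OHT and 362 in control EtOH cells. Scd2, a second desaturase of this kind, was at 1001, 969, 1045 and 1043. Scd1 was lowest in CKO 4OHT, 0.62 log2 below control 4OHT, and its second probe set differed there by -0.57. With Ebp it was 1 of 2 members at least 1.5-fold lower in that comparison, as were 5.8% of all genes kept, and Dhcr7 was the 1 member 1.5-fold higher (6.45%). The Scd2 probe set of highest mean spanned 0.11 log2, but another probe set was at 97.1, 69.7, 100 and 53.0. Elovl5 spanned 0.42 log2 and Fads2 0.10. The second Fads2 probe set resembled Elovl6, at 70.2, 54.6, 50.7 and 74.0.

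Between the genotypes with solvent, the fewest genes passed a fold, although the members' median was furthest from 0. In CKO EtOH against control EtOH cells no member reached 2-fold, as for 0.0424% of all genes kept in the higher and 0% in the lower direction. Elovl6 was the 1 member past 1.5-fold, at -0.60 log2, where 0.636% of all genes kept were lower by that much and 0.551% higher. Of the 30 members 20 were lower (66.7%, against 56.4% of all genes kept) and 10 higher, with a median of -0.11, and the sign of such small values was often not shared by a gene's other probe sets (9 of 21 pairs had opposite signs).

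**Figure D4:**
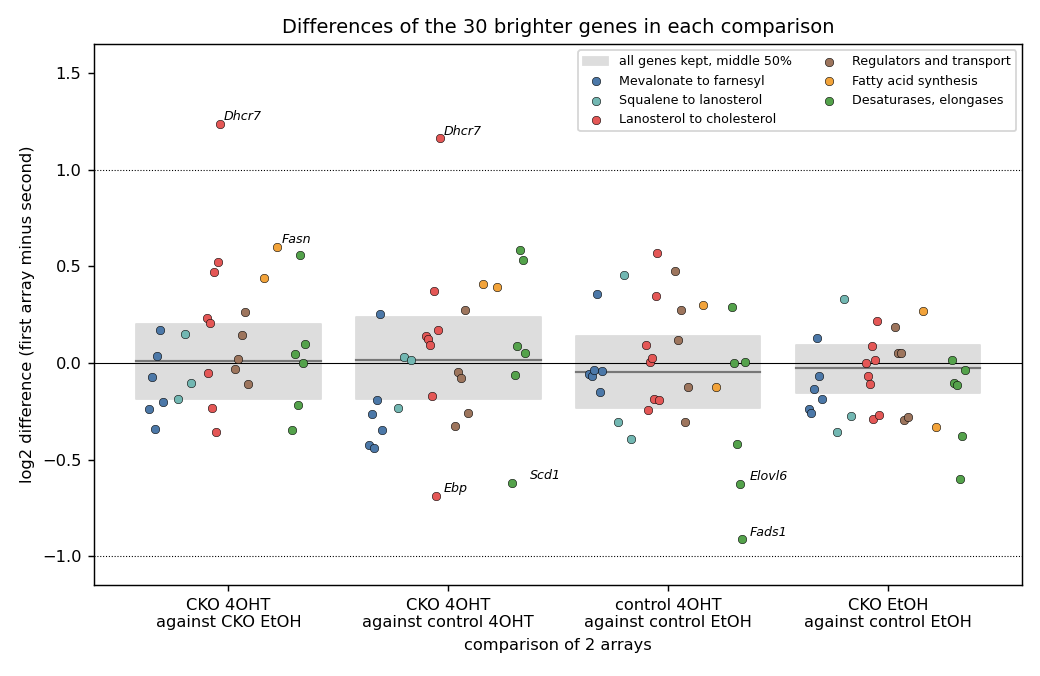
Log2 differences of the 30 members above the level filter in 4 comparisons of 2 arrays, coloured by role. The grey box runs between the quartiles of all 7075 genes kept, with their median as a line, and dotted lines mark 2-fold. Dhcr7 is the single point beyond 2-fold, in both comparisons of CKO 4OHT cells, and Fads1 is the lowest point in control 4OHT against control EtOH cells.

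Both comparisons of CKO 4OHT cells share that array, and the effect of 4OHT in CKO cells shares no array with that in control cells. The difference of the 4OHT effects, CKO minus control, was at least 2-fold for Dhcr7 (1.43 log2) and Elovl6 (1.18), as for 2.52% of all genes kept in the higher direction and 2.76% in the lower. It was next highest for Fads1 (0.91), Fasn (0.73) and Hsd17b7 (0.66), and lowest for Ebp (-0.70) and Scd1 (-0.63). At 1.5-fold, 5 members were thus higher (10.8% of all genes kept) and 2 lower (8.06%). For Elovl6 the parts were 0.56 in CKO cells and -0.63 in control cells, and for Dhcr7 1.24 and -0.19.

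Genes of neighbouring steps were taken from lists chosen by function. In the fatty acid list 14 of 21 genes on the array were kept. Acss2, which makes acetyl-CoA from acetate, was at 34.1 in CKO 4OHT, 86.9 in CKO EtOH, 79.3 in control 4OHT and 95.2 in control EtOH cells. It was the 1 gene of the 14 at least 2-fold lower in either comparison of CKO 4OHT cells (1.74% and 2.09% of all genes kept), at -1.35 log2 against CKO EtOH and -1.22 against control 4OHT. Acss2 thus stood opposite to Acly, the other source of acetyl-CoA. Hsd17b12, the ketoacyl reductase of chain elongation, was at 516, 304, 316 and 290 in the same groups, 0.76 and 0.71 log2 higher. Fabp5, the epidermal fatty acid binding protein, was at 1361, 2081, 2160 and 1937, and so was lowest in CKO 4OHT. Tecr, the reductase that completes each round of chain elongation, was at 599, 765, 823 and 664 and was also lowest there (-0.46 log2 against control 4OHT).

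Elovl4 and Elovl1 make the very long chains of barrier lipids. Elovl4 was at 95.5 in CKO 4OHT against 61.0 in CKO EtOH cells, and at 109 in control 4OHT against 53.4 in control EtOH cells. It was higher with 4OHT in both genotypes, by 0.65 and 1.03 log2. Elovl1 was at 866 in CKO 4OHT against 572 in CKO EtOH cells, and at 714 in control 4OHT against 602 in control EtOH cells. Me1, malic enzyme, a source of NADPH for synthesis, was at 119, 162, 223 and 131 in CKO 4OHT, CKO EtOH, control 4OHT and control EtOH cells, and its difference of 4OHT effects was -1.21.

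In the list of further sterol genes 9 of 9 on the array were kept, and none was 2-fold different in any of the 4 comparisons, where at most 2.09% of all genes kept were in either direction. Npc2, a lysosomal cholesterol carrier, was at 1034 in CKO 4OHT, 1090 in CKO EtOH, 1088 in control 4OHT and 1106 in control EtOH cells, and Osbp, an oxysterol binding protein, was at 135, 157, 139 and 160. Npc2 spanned 0.10 log2 and Osbp 0.24. The list's median was -0.04 in both comparisons of CKO 4OHT cells.

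In the list of genes of sterol efflux and its liver X receptor, 7 of 9 on the array were kept. Of the receptor's own genes, Nr1h3 was under the filter and Nr1h2 was not analysed here. Cyp27a1, a mitochondrial sterol hydroxylase, was at 49.5 in CKO 4OHT, 122 in CKO EtOH, 88.1 in control 4OHT and 105 in control EtOH cells (-1.30 log2 against CKO EtOH). Apoe, the apolipoprotein of cholesterol efflux, was at 240, 429, 512 and 377 (-1.09 against control 4OHT). Both were lowest in CKO 4OHT, and each was the 1 gene of the 7 at least 2-fold different in the comparison named, where 1.74% and 2.09% of all genes kept were lower. Lpcat3, an enzyme of membrane phospholipids, was at 324 in CKO 4OHT against 250 in CKO EtOH cells, and at 301 in control 4OHT against 224 in control EtOH cells. The exporters Abca1 and Abcg1 were on the other side, 0.90 and 0.99 log2 higher in CKO 4OHT than in CKO EtOH cells, but -0.02 and 0.30 against control 4OHT. The list's median was -0.37 against CKO EtOH and -0.28 against control 4OHT.

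Of 12 lipid droplet and triglyceride genes on the array 10 were kept, with a median of 0.47 against CKO EtOH and -0.12 against control 4OHT. Plin2, a coat protein of lipid droplets, was at 990 in CKO 4OHT, 653 in CKO EtOH, 589 in control 4OHT and 582 in control EtOH cells, above every other array. Plin3, a relative of Plin2, was at 209, 240, 233 and 244 in the same groups, lowest in CKO 4OHT. Cidea, a lipid droplet protein that is also a sebocyte marker here, was at 56.4 in CKO 4OHT against 26.7 in CKO EtOH cells, and at 52.6 in control 4OHT against 17.0 in control EtOH cells. It was higher with 4OHT in both genotypes and was the 1 gene of the 10 past 2-fold in the comparisons of 4OHT with EtOH, where 1.64% of all genes kept were higher in CKO and 1.29% in control cells. The summed sebocyte markers were at 1304, 1316, 1207 and 1120 in CKO 4OHT, CKO EtOH, control 4OHT and control EtOH cells. Within that sum Mgst1, a microsomal glutathione transferase, was at 197, 579, 506 and 466, lowest in CKO 4OHT (-1.56 log2 against CKO EtOH and -1.36 against control 4OHT), while Plin2 was highest there. The part of these markers in the lipid gene values was not tested.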

How the data were processed

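Per the labels, total RNA of 4 keratinocyte cultures was labelled by a 3′ in vitro transcription kit and read on an Affymetrix Mouse Expression Array 430A. The deposited values are intensities on a linear scale, 1 per probe set and array (22626 probe sets, 2.66 to 7167), made with RMA per the submitters' processing notes. The version of RMA was not given in the sources used here. This method makes the arrays' distributions alike, so a shift of most transcripts would be lost, and it narrows differences of dim probe sets.

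Here log2 was taken with no pseudocount. Platform annotation named 1 gene for 20380 probe sets, several for 691 and none for 1555. All 31 members on the array matched the RefSeq gene table by Entrez identifier. Among probe sets naming a gene alone, the brightest by mean log2 stood for it. The level filter used the mean over arrays. A gene can still pass it through its brighter arrays, as Cidea does with control EtOH at 17.0. With 1 array per group no p-value is given and differences of at least 2-fold (1 on the log2 scale), or 1.5-fold, were counted. The counting was tested on simulated data, with planted shifts larger than the 2-fold line and noise set in advance. That checks the code and not the noise of these arrays. Precision is limited by the 4 arrays.

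Members and gene lists were chosen with earlier results of these data known. All members are accounted for. Values on every array are given for members that reached 2-fold anywhere, for the 3 of widest range and the 2 of highest mean in each of 6 role groups, and for genes of 4 further lists that were 2-fold different or of highest mean. Hsd17b7, Hsd17b12, Elovl1, Me1, Abca1, Abcg1, the markers Mgst1, Epcam, Itgb4 and Cdh1, and second probe sets, were added after their values were seen. Python 3.11.15, pandas 2.3.3, numpy 2.4.6 and matplotlib 3.10.9 were used. Alternatives changed the probe set, the filter, the pseudocount, the normalization and the fold rule.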

Additional observations from a re-analysis of the deposited data

Results flagged for a closer look

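Dhcr7 and Elovl6 had effects of 4OHT that ran opposite ways in the 2 genotypes and lay at least 2-fold apart. With 1 array per group the difference was not tested. For Dhcr7 the log2 difference with 4OHT was 1.24 in CKO cells and -0.19 in control cells, 1.43 apart. For Elovl6 it was 0.56 in CKO cells and -0.63 in control cells, 1.18 apart. Such pairs of opposite effects made up 6.67% of the 30 members (2 genes) and 4.41% of all genes kept (312 of 7075). With solvent alone, CKO EtOH against control EtOH cells already differed by -0.60 log2 for Elovl6 and -0.27 for Dhcr7. The -0.19 of Dhcr7 in control cells was thus smaller than its difference between the solvent cultures.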

How the results depend on the processing

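No paired analysis was possible because each group had 1 array, and for the same reason no replicate could be left out. The median of the members moved by no more than 0.1 log2 under any of the 8 alternatives that apply to it, staying between -0.03 and 0.04 for CKO 4OHT against CKO EtOH, -0.07 and 0.04 against control 4OHT, -0.05 and -0.01 for control 4OHT against control EtOH, -0.12 and -0.08 for CKO EtOH against control EtOH, and -0.01 and 0.09 for the difference of the 4OHT effects. Medians this near 0 have no firm sign. When the probe set was picked by the mean of linear intensities, an alternative chosen after seeing the data, Hsd17b7 was read by its other probe set, and 2 members, not 1, were at least 2-fold higher in CKO 4OHT against CKO EtOH and 2 against control 4OHT. By the main choice of probe set, 1.64% and 1.24% of all genes kept were 2-fold higher in these comparisons. With a 1.5-fold rule in place of 2-fold, 2 members were higher in CKO 4OHT against CKO EtOH (5.37% of all genes kept). Against control 4OHT 2 were lower (5.8%). In control 4OHT against control EtOH 2 were lower (3.84%), and in CKO EtOH against control EtOH 1 was (0.636%). For the difference of the 4OHT effects 5 were higher (10.8%) and 2 lower (8.06%). In CKO 4OHT 1 member lay at least 1.5-fold above every other array, and the share over all genes kept was not counted. With control 4OHT left out, still 0 members lay 2-fold above or below the others in CKO 4OHT. Of 680 values recomputed for 17 named genes, 9 changed side of the 2-fold line and 0 changed sign from beyond it. Acss2, Elovl4, Cyp27a1 and Cidea came under 2-fold in at least 1 comparison with 16 units added, which narrows differences of dim genes by construction. With the median of all probe sets the difference of 4OHT effects for Acss2 was -0.71.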
